A study of Mus musculus with 17 samples.

Results

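Hepatocytes were sorted by FACS from the livers of wild type male mice aged 2 to 3 months, and their RNA was sequenced with or without repeated carbon tetrachloride (CCl4), a solvent toxic to the liver. The comparison takes every sample whose labels give a wild type genotype, 5 after CCl4 and 5 untreated, which are 10 of the 17 samples in the series, and describes it across all genes. The mice of the CCl4 group received 7 doses of 1 ug/g, with 3 days between doses, and their hepatocytes were collected 3 days after the last one. The remaining 7 samples carry a Yap/Taz knockout, 4 untreated and 3 after the same CCl4 course. They share the estimate of the spread and are used here only where the wild type response is set beside theirs. The labels name no strain, Cre driver, vehicle or animal of origin for the wild type samples, so the p values measure only the spread between these samples, which may be technical.

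CCl4 is made reactive by the cytochrome Cyp2e1, which sits mainly in the hepatocytes around the central vein, and the radicals formed there damage lipids and proteins of those cells. Surviving hepatocytes can divide to replace those lost. Male mouse liver also has a sex-specific programme, driven by pulses of growth hormone acting through the transcription factor STAT5, whose most abundant products are the major urinary proteins (MUPs), small pheromone carriers excreted in urine.

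After CCl4 the clearest changes in wild type hepatocytes were a fall of the Mup genes and of other male-pattern genes, a rise of Lpl, Apoa4 and Acot2, genes of lipid handling, and a rise of a small set of injury-associated genes led by Ly6d and Golm1. Of 13721 genes tested, 117 were called at an adjusted p under 0.05, which is 0.853%; 79 were higher (0.576%) and 38 lower (0.277%), and 2023 genes had an unadjusted p under 0.05. The split depended on the method: scaling by library totals gave 617 higher and 34 lower, and limma voom with quality weights 199 higher and 236 lower. The median log2 fold change over all genes tested was -0.01. The number called depended on single libraries. It was 67 and 63 without untreated replicates 2 and 3, 74 and 69 without CCl4 replicates 2 and 5, and 179 without knockout CCl4 replicate 3. A set of 51 genes, 31 higher and 20 lower, was called whichever wild type library was left out.

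The rises and the falls differed in the level of the genes involved. Levels are CPM, that is, counts scaled to a common library size. Of the 79 genes that rose, 54 had a mean under 10 CPM in the CCl4 group and 3 had 100 CPM or more. Of the 38 that fell, 17 had at least 100 CPM in the untreated group, and 19 lay on chromosome 4, 14 of them Mup genes or pseudogenes. The median absolute log2 fold change was 2.52 among the rises and 2.53 among the falls. The groups did not overlap for 75 of the 79 rises and 37 of the 38 falls. Such separation held for 3.15% and 1.69% of all genes tested (4.84% in either direction), and it is close to fixed for genes picked by a small p.

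**Figure D1:**
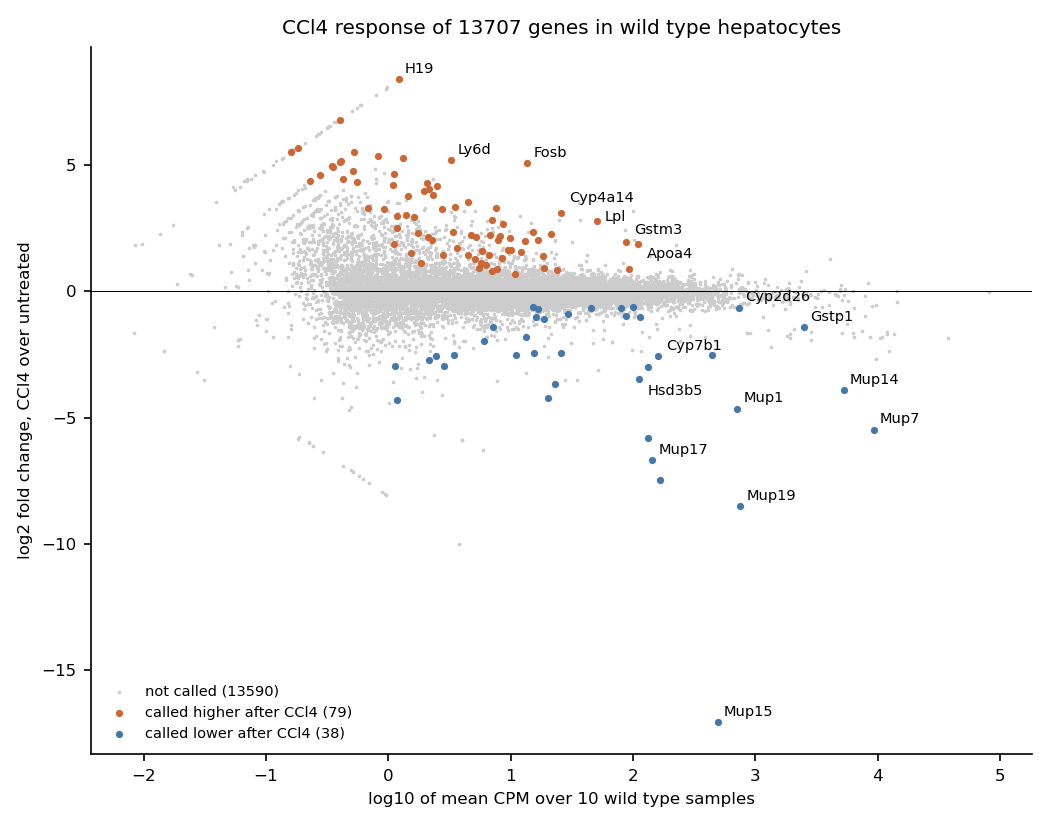
Log2 fold change after CCl4 (vertical axis) against the log10 of the mean CPM over the 10 wild type samples (horizontal axis), 1 point per gene for the 13707 genes with at least 1 count in these samples. The called falls lie mostly at high levels, with Mup7 and Mup14 at the far right, and the called rises mostly at low levels. Fitted values of genes with 0 counts in 1 group, such as H19 and Mup15, depend on the prior count.

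The sorted cells had the markers of hepatocytes. Alb, serum albumin, had 59218 to 107994 CPM in untreated and 73457 to 88704 CPM in CCl4 samples. None of 16 hepatocyte markers was called in either direction, where 0.853% of all genes were. Total counts ran from 11266420 to 24775863 per wild type library. Untreated replicate 5 stood apart, with 30.7% of its counts from mitochondrially encoded genes while the remaining untreated libraries had 5.32 to 20.1% and those from treated mice 1.98 to 10%. Of 15 mitochondrially encoded genes none was called, 14 had a log2 fold change below 0 (list median -1.70), and the groups overlapped for all 15. In CPM the largest difference of any gene was that of mt-Co1, a cytochrome oxidase subunit, with means of 58914 in untreated and 16524 in CCl4 samples (-1.83 ± 0.65, adjusted p = 0.194). With those genes left out 120 genes were called, 116 of them among the 117. With only wild type samples and without that library 188 genes were called, 84 of them among the 117. The first principal component (27.7% of the variance) ran from -43.7 to -3.44 in untreated and from 17 to 28.5 in CCl4 libraries, with untreated replicate 4 nearest to the CCl4 group.

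Markers of other liver cells were at low levels, and several sums were higher after CCl4. The summed level of 25 liver endothelial markers was 21.9, 28.7, 59.9, 77.5 and 68.4 CPM in untreated replicates 1 to 5 and 103, 152, 67.5, 394 and 195 CPM in CCl4 replicates 1 to 5. CCl4 replicate 4 was the highest and CCl4 replicate 3 lay inside the untreated range. For 25 stellate cell and fibroblast markers the sums ran from 7.47 to 34.0 CPM in untreated and from 22.1 to 108 CPM in CCl4 samples, with Acta2 and Thy1 at 0 in every untreated sample. For 25 macrophage markers they ran from 101 to 144 and from 106 to 219 CPM. No endothelial or macrophage marker was at 0 throughout a group. Of 17 T, NK and B cell markers in the table, Trac and Trbc2 were at 0 in both groups, and the sums stayed at or under 6.91 CPM. The part that these cells play in the rises below was not tested. In bulk RNA, fewer cells of a type and less RNA per cell cannot be told apart.

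**Figure D2:**
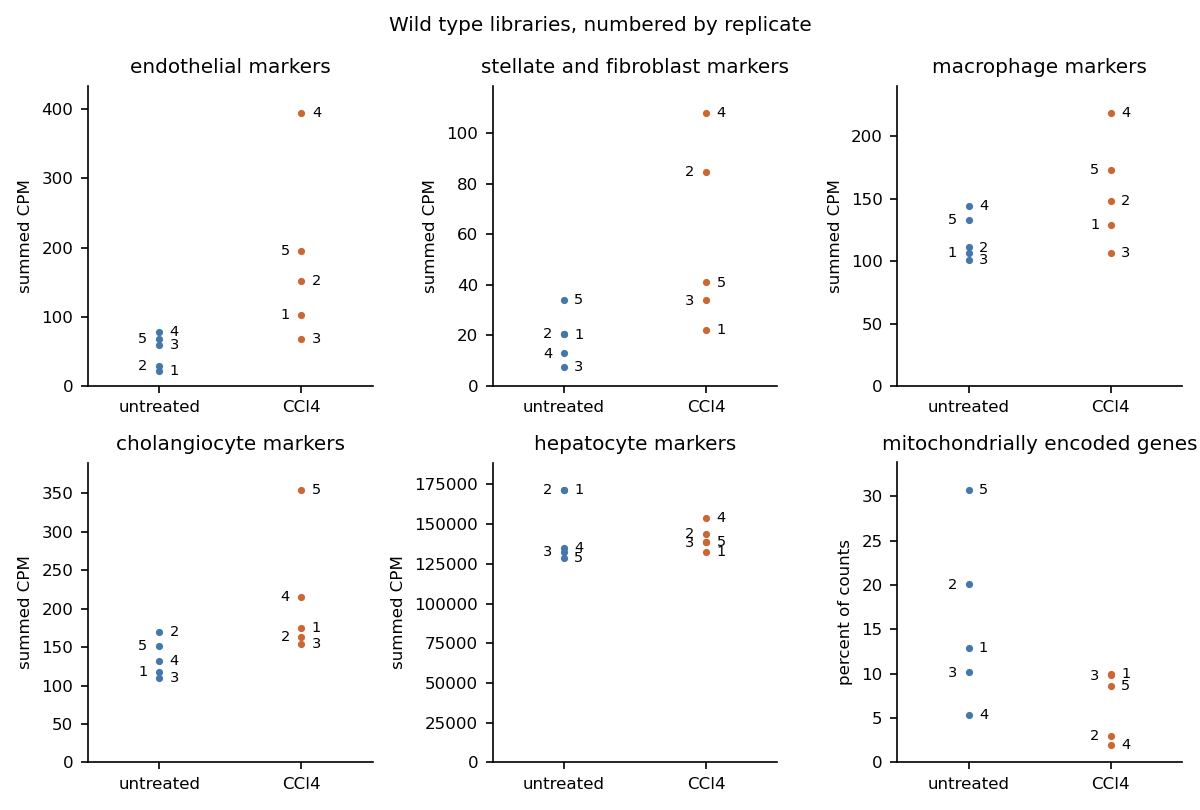
Summed CPM of the marker lists of 5 cell types, and the percentage of counts from mitochondrially encoded genes (vertical axes), for each wild type library, numbered by replicate. CCl4 replicate 4 has the highest endothelial, stellate and macrophage sums, and untreated replicate 5 has the highest mitochondrial share at 30.7%.

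Mup genes and pseudogenes were 14 of the 38 falls. Mup7 (chr4:60066469-60070475, GRCm38) had 19362, 15266, 30746, 3605 and 21534 CPM in untreated replicates 1 to 5 and 586, 236, 554, 359 and 296 CPM in CCl4 replicates 1 to 5. All 5 CCl4 samples lay below the lowest untreated sample, replicate 4, and the log2 fold change was -5.48 ± 0.88 (adjusted p = 0.00664). Mup14 (chr4:61300023-61304000) had 9972, 9739, 12648, 3732 and 13187 CPM in the untreated and 797, 479.7, 695, 771 and 499 CPM in the CCl4 samples, in replicate order, again with no overlap (-3.93 ± 0.68, adjusted p = 0.00975). Mup19 had 4064, 1789, 923, 404 and 329 CPM in the untreated and 4.43, 1.39, 10.5, 1.76 and 2.48 CPM in the CCl4 samples, in replicate order. Its untreated samples were widely spread, its CCl4 samples were all under 11 CPM, and the log2 fold change was -8.49 ± 1.05 (adjusted p = 0.00164).

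The table holds 41 Mup genes and pseudogenes, of which 35 were tested. All 35 had a log2 fold change below 0, with a median of -2.55, and 14 fell, where 0.277% of all genes did. The untreated and CCl4 groups did not overlap for 25, a separation downward that 1.69% of all genes showed. With wild type samples only, 18 of the 21 tested Mup genes, pseudogenes apart, were called lower, against 10 in the main fit. The fit of wild type samples only called 1.39% of 12178 genes in either direction. Summed over the family, levels were 86273, 76879, 123526, 37074 and 97803 CPM in untreated replicates 1 to 5 and 16730, 18149, 18867, 18393 and 12820 CPM in CCl4 replicates 1 to 5. Untreated replicate 4 was the lowest of its group and still above every CCl4 sample. Within the family the size of the change varied. Mup17, Mup12, Mup1, Mup13, Mup16 and Mup-ps17 fell, with log2 fold changes of -6.67, -5.81, -4.64, -4.21, -2.53 and -7.48. The calls of Mup1 and Mup16 held in 4 and 1 of the 10 fits that each left out 1 wild type library, and those of the other 4 in all. Mup15 had 70694 counts over the untreated samples and 0 over the CCl4 samples, and was at least 38385-fold lower against a floor of 3 counts over the group. Mup9, the most abundant member, had 20874, 17583, 32221, 9767 and 23293 CPM in the untreated and 4050.0, 3592, 5039, 4012 and 3177 CPM in the CCl4 samples, in replicate order, and was not called (-2.38 ± 0.58, adjusted p = 0.0707). Other members that were not called include Mup3 (-1.67 ± 0.39, adjusted p = 0.0546), Mup20 (-1.30 ± 0.59, adjusted p = 0.314), the pseudogene Mup-ps19 (-0.50 ± 0.92, adjusted p = 0.854) and Mup10 (-0.90 ± 0.44, adjusted p = 0.357). Mup2, chosen after its values were seen, had 25.4, 18, 21.5, 21.7 and 11.1 CPM in the untreated and 16.6, 19.5, 23.3, 17.3 and 10.2 CPM in the CCl4 samples, in replicate order, and its groups overlapped (-0.17 ± 0.48, adjusted p = 0.919). Mup genes are close copies of each other, so the share of reads given to any 1 member is uncertain. Gm13775 and Gm13773, models inside the cluster, fell by 3.69 and 2.44 log2. They overlap or neighbour Mup copies and are uncertain for the same reason, and the call of Gm13773 held in 2 of the 10 fits.

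**Figure D3:**
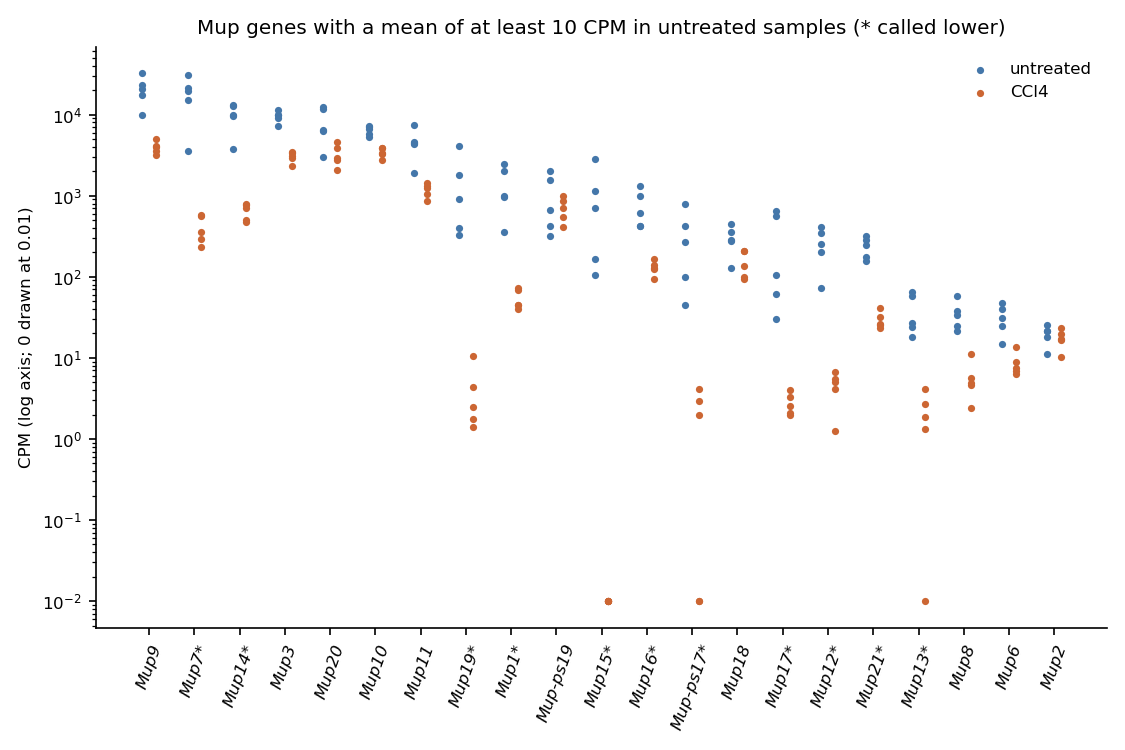
CPM of each wild type sample (vertical axis, logarithmic, 0 drawn at 0.01) for the Mup genes and pseudogenes with a mean of at least 10 CPM in untreated samples, in order of that mean. Members called lower are marked with an asterisk; the gap between the groups is wide for Mup19, Mup15 and Mup17, and the groups overlap for Mup20, Mup-ps19, Mup18 and Mup2.

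The closeness of the copies can be seen in the 250 bases before the start sites that RefSeq annotates on GRCm38.p6. Shown are Mup14, which fell, Mup2, which was not called, and the more divergent Mup21, which fell by 2.99 ± 0.50 log2. Capitals mark bases within the stretch aligned to Mup14 that Mup14 does not match. Mup14 is at chr4:61303999-61304248, Mup2 at chr4:60139857-60140106 and Mup21 at chr4:62150842-62151091, all on the minus strand.
Mup14: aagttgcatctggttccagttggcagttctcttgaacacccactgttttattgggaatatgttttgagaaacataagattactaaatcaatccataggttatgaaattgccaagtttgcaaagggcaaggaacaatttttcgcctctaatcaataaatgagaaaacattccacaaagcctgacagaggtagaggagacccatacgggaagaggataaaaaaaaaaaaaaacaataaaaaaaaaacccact
Mup2: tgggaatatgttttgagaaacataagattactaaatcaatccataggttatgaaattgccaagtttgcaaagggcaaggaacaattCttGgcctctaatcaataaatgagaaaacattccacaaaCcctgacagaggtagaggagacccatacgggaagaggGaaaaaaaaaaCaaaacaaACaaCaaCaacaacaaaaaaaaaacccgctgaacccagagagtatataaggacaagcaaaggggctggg
Mup21: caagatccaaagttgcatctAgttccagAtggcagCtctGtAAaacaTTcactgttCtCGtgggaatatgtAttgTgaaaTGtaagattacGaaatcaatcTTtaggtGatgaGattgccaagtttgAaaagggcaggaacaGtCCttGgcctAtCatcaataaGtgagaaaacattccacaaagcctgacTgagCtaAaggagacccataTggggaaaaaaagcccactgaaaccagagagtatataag
In the best local alignment Mup2 matched Mup14 at 182 of 192 positions (94.8%) and Mup21 at 174 of 207 (84.1%). The annotated start of Mup2 is offset by 51 bases against that of Mup14. Mup18 matched at 98.0% and was not called (-1.0 ± 0.48), while Mup15 matched at 95%. The order of identity was not the order of the fold changes.

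Other genes of the male pattern fell with the Mup family. Of 31 male-biased liver genes tested outside it, 4 fell, none rose, and 28 had a log2 fold change below 0, with a list median of -1.05. Among all genes 0.277% fell. With wild type samples only, 12 of the 31 were called lower and none higher. Hsd3b5 (chr3:98618634-98630252), a steroid dehydrogenase made almost only by male liver, had 181, 260.2, 199, 205 and 183 CPM in the untreated and 7.73, 15.2, 24.3, 34.3 and 12 CPM in the CCl4 samples, in replicate order. Every CCl4 sample was far below the lowest untreated sample, a log2 fold change of -3.46 ± 0.47 (adjusted p = 0.00215). Cyp7b1, the oxysterol hydroxylase of the alternative bile acid pathway, had 202, 289.9, 335, 164 and 369 CPM in the untreated and 49.1, 30.6, 62.3, 56 and 31.4 CPM in the CCl4 samples, in replicate order. The groups were again far apart (-2.57 ± 0.46, adjusted p = 0.0123). Susd4, a complement regulator, fell by 2.53 ± 0.32 log2, with 13.2 to 24.8 CPM in untreated and 1.56 to 5.23 CPM in CCl4 samples. These 3 genes and Gstp1 kept their calls whichever wild type library was left out. Slco1a1, an organic anion uptake carrier (-1.49 ± 0.37, adjusted p = 0.0774), Ugt2b1, a glucuronosyltransferase (-0.78 ± 0.20, adjusted p = 0.0861), and Cyp2d9, a steroid hydroxylase (-1.03 ± 0.27, adjusted p = 0.0994), had groups that did not overlap but were not called.

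Among 18 female-biased genes tested 2 rose and none fell, where 0.576% and 0.277% of all genes did. Of the 18, 15 had a log2 fold change above 0, and the list median was 1.51. The filter ran over all 17 samples and passed 18 of 26 female-biased genes in the data. Genes low in untreated samples could pass it through their CCl4 levels in either genotype. Part of the sign count and of the median may be fixed by that. Cyp2a4, a steroid hydroxylase, had 0.202, 0.50, 0.314, 1.55 and 0 CPM in the untreated and 8.85, 3.47, 3.25, 4.34 and 5.07 CPM in the CCl4 samples, in replicate order. All CCl4 samples were above all untreated samples (3.24 ± 0.63, adjusted p = 0.0199), at levels that remained under 10 CPM. Cyp3a44 had 0 to 0.59 CPM in untreated and 1.17 to 3.72 CPM in CCl4 samples (3.01 ± 0.63, adjusted p = 0.0326). Cyp2a4 was called in 7 and Cyp3a44 in 4 of the 10 fits that each left out 1 wild type library. Both have near-identical copies, so reads may be shared between genes. Of 20 growth hormone and STAT5 axis genes tested none was called, where 0.853% of all genes were. Igf1, the hormone that liver secretes under growth hormone, had 644, 689, 425, 563 and 470.4 CPM in the untreated and 409, 409, 336, 528 and 429 CPM in the CCl4 samples, in replicate order, with overlapping groups (-0.40 ± 0.16, adjusted p = 0.235). Igfals, which binds it in serum (-0.58 ± 0.20, adjusted p = 0.184), and the receptor Egfr (-0.56 ± 0.26, adjusted p = 0.333) were also not called.

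Single genes of lipid uptake and fatty acid oxidation rose. Lpl (chr8:68880491-68907448), the lipase that frees fatty acids from circulating triglyceride and is scarce in adult hepatocytes, had 6.55, 5.84, 8.23, 22.3 and 20.7 CPM in the untreated and 70.7, 91, 112, 85.2 and 80.2 CPM in the CCl4 samples, in replicate order. The lowest CCl4 sample was more than 3 times the highest untreated sample, and the log2 fold change was 2.79 ± 0.40 (adjusted p = 0.00287). Apoa4, an apolipoprotein of triglyceride-rich particles, had 50.4, 47.9, 35.6, 58.3 and 42.3 CPM in the untreated and 199, 153, 99.1, 241 and 172 CPM in the CCl4 samples, in replicate order. The groups did not overlap (1.88 ± 0.25, adjusted p = 0.00215). Acot2, a mitochondrial acyl-CoA thioesterase, had 1.61, 1.58, 1.51, 1.92 and 1.73 CPM in the untreated and 8.23, 5.74, 10.6, 4.88 and 9.41 CPM in the CCl4 samples, in replicate order. Its untreated samples lay within 0.5 CPM of each other and its CCl4 samples all at or above 4.88 CPM (2.21 ± 0.32, adjusted p = 0.0034). Lpl, Apoa4 and Acot2 kept their calls with each wild type library left out.

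Among 40 tested genes for oxidizing fatty acids or regulated by PPARA, 30 had a log2 fold change above 0, with a list median of 0.25. Of the 40, 3 rose, where 0.576% of all genes did, and none fell. Besides Acot2 these were the omega-hydroxylases Cyp4a14 and Cyp4a31. Cyp4a14 had 13.5, 2.17, 1.01, 7.74 and 2.53 CPM in the untreated and 47.7, 42.5, 72.9, 13.5 and 52.7 CPM in the CCl4 samples, in replicate order. Untreated replicate 1 and CCl4 replicate 4 met at 13.5 CPM, the log2 fold change was 3.11 ± 0.68 (adjusted p = 0.0388), and the call held in 2 of the 10 fits that each left out 1 wild type library (adjusted p up to 0.112, without untreated replicate 2). Cyp4a31 rose by 2.34 ± 0.49 log2 and kept its call in 3 of those fits. Cyp4a genes are close copies, and Cyp4a10, the most abundant of the 3, was not called (2.03 ± 0.51, adjusted p = 0.0783). The fatty acid receptor Cd36 had 6.35, 2.42, 2.14, 16.4 and 3.69 CPM in the untreated and 43, 55.5, 27.1, 52.5 and 39.1 CPM in the CCl4 samples, in replicate order, without overlap, but was not called (2.81 ± 0.66, adjusted p = 0.0594). In the list of 35 lipid uptake and droplet genes tested, Lpl rose and Fitm1, which partitions triglyceride into droplets, fell from 3.02 to 8.55 CPM in untreated to 0.312 to 0.819 CPM in CCl4 samples (-2.98 ± 0.49, adjusted p = 0.00756). Of 21 genes of lipogenesis and 25 of cholesterol synthesis none was called, where 0.853% of all genes were. The desaturase Scd1 had 1089 to 3371 CPM in untreated and 4303 to 6709 CPM in CCl4 samples (1.26 ± 0.43, adjusted p = 0.182).

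**Figure D4:**
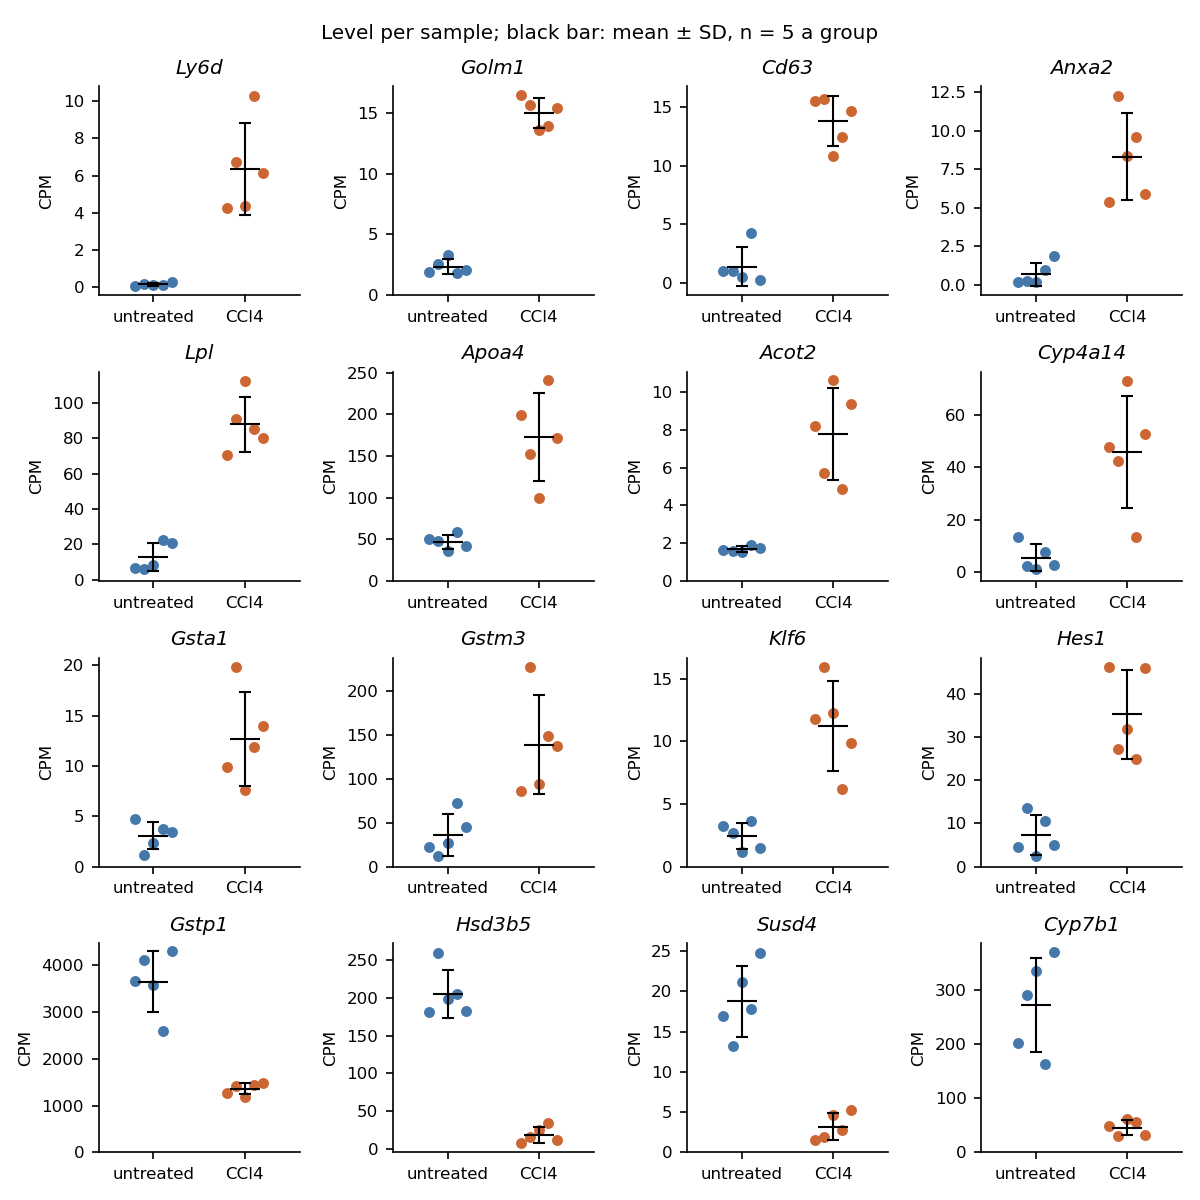
CPM (vertical axes) of 16 genes in the 5 untreated and 5 CCl4 wild type samples, 1 point per sample, with black bars for the mean ± SD. The groups are separate for every gene drawn except Cyp4a14, where untreated replicate 1 and CCl4 replicate 4 meet at 13.5 CPM.

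Enzymes of bile acid and drug handling were mixed. Among 24 genes that make or move bile acids 1, Cyp7b1, fell and none rose. The neutral-pathway enzyme Cyp7a1, the rate-limiting step of bile acid synthesis, had 64.2, 22.9, 8.92, 28.1 and 10.3 CPM in the untreated and 64.5, 132, 125, 137 and 268 CPM in the CCl4 samples, in replicate order, without overlap, and was not called (2.44 ± 0.66, adjusted p = 0.104). Slc10a2, the apical bile acid carrier and a member of no list, rose by 1.54 ± 0.34 log2 and kept its call in 1 of the 10 fits. Cyp2e1, the enzyme that activates CCl4, had 2529, 1531, 2490.5, 3064 and 2701 CPM in the untreated and 1023, 2324, 2775, 1987 and 2020.5 CPM in the CCl4 samples, in replicate order, with overlapping groups (-0.28 ± 0.49, adjusted p = 0.842). None of 15 genes of CCl4 activation and its electron partners was called, where 0.853% of all genes were. Cyp2b10, the classical target of the receptor CAR, had 1.75 to 5.01 CPM in untreated and 5.92 to 24.6 CPM in CCl4 samples, without overlap (2.38 ± 0.58, adjusted p = 0.0665). Of 31 pericentral genes Slc1a4, an amino acid exchanger, rose by 2.15 ± 0.34 log2, and Mup17, also a Mup gene, fell; of 26 periportal genes Apoa4 alone was called. The medians of these lists were 0.30 and -0.17. Glul, glutamine synthetase of the cells next to the central vein, had 104, 41.3, 54.5, 50.9 and 122 CPM in the untreated and 41.5, 106, 128, 98.5 and 86.2 CPM in the CCl4 samples, in replicate order, with overlap (0.30 ± 0.37, adjusted p = 0.766).

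Glutathione transferases, which couple reactive compounds to glutathione, moved in both directions. Of 22 tested 2 rose and 1 fell, where 0.576% and 0.277% of all genes did. Gstp1 (chr19:4035407-4037985), the abundant pi-class member and itself higher in male liver, had 3661, 4106, 3575, 2598 and 4304 CPM in the untreated and 1272, 1415, 1193, 1429.5 and 1489.6 CPM in the CCl4 samples, in replicate order. The groups were far apart (-1.42 ± 0.19, adjusted p = 0.00215). Gsta1, an alpha-class member, had 4.74, 1.17, 2.39, 3.76 and 3.4 CPM in the untreated and 9.91, 19.9, 7.6, 11.9 and 14 CPM in the CCl4 samples, in replicate order. Its CCl4 samples all lay above its untreated samples (2.04 ± 0.39, adjusted p = 0.0191), and its call held in 8 of the 10 fits. Gstm3, a mu-class member, rose by 1.94 ± 0.44 log2 and kept its call in 1 of them. Gstp1 and Gsta1 each have a near-identical neighbour. None of 30 NRF2 antioxidant response genes was called (list median -0.04). At 0.853% of all genes called, lists this short hold few or no calls. Ptgr1, a reductase of reactive lipid aldehydes that was outside that list, had 3.13, 3.17, 3.14, 4.13 and 4.48 CPM in the untreated and 11, 9.33, 6.85, 10.1 and 11.2 CPM in the CCl4 samples, in replicate order, and rose by 1.42 ± 0.22 log2 (adjusted p = 0.00545).

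Injury-associated hepatocyte genes, the list with most rises, gave 7 rises and no fall among 33 tested, 27 log2 fold changes above 0, and a median of 1.18. Of all genes 0.576% rose. This list, like the others, was written with earlier results of these data known, so its count is no independent support. Of its 40 genes 33 passed the filter, which genes low in untreated samples could pass through their CCl4 levels. Part of its median may be fixed by that. Ly6d (chr15:74762056-74763620), a GPI-anchored surface protein known from liver progenitor states, had 0.101, 0.167, 0.126, 0.147 and 0.289 CPM in the untreated and 4.24, 6.74, 4.35, 10.3 and 6.12 CPM in the CCl4 samples, in replicate order. Every untreated sample was under 0.3 CPM and every CCl4 sample over 4 CPM (5.18 ± 0.48, adjusted p = 0.000104), the smallest adjusted p among all genes tested. Golm1 (chr13:59634626-59675811), a Golgi membrane protein raised in diseased liver, had 1.92, 2.58, 3.27, 1.84 and 2.1 CPM in the untreated and 16.5, 15.6, 13.6, 13.9 and 15.4 CPM in the CCl4 samples, in replicate order. The groups were tight and far apart (2.67 ± 0.27, adjusted p = 0.000149). Cd63, a tetraspanin of late endosomes and exosomes, had 1.01, 1.0, 0.503, 4.27 and 0.289 CPM in the untreated and 15.5, 15.7, 10.8, 12.4 and 14.7 CPM in the CCl4 samples, in replicate order. Untreated replicate 4 was the highest of its group, still below every CCl4 sample (3.28 ± 0.55, adjusted p = 0.00786).

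Anxa2, a membrane and actin binding annexin, had 0.202, 0.25, 0.188, 0.958 and 1.88 CPM in the untreated and 5.36, 12.3, 8.38, 9.61 and 5.92 CPM in the CCl4 samples, in replicate order. Its untreated replicates 4 and 5 were the highest of their group, and the groups did not overlap (3.53 ± 0.53, adjusted p = 0.00412). Tpm1, an actin filament tropomyosin, rose from 15.7 to 18.2 CPM in untreated to 27.3 to 34.5 CPM in CCl4 samples (0.85 ± 0.14, adjusted p = 0.00664). Ly6d, Golm1, Cd63, Anxa2 and Tpm1 kept their calls with each wild type library left out. The lectin Lgals1 (2.09 ± 0.44 log2) and the actin binding protein Tagln2 (1.64 ± 0.37 log2) did so in 3 and 2 of the 10 fits. Cd9, another tetraspanin and a member of no list, rose from 6.45 to 16.6 CPM to 24.3 to 28.6 CPM (1.38 ± 0.24, adjusted p = 0.00895). Several of these genes are also expressed by endothelial, stellate and immune cells, whose summed markers are given above, and by biliary cells. The summed markers of cholangiocytes, the biliary cells, ran from 109.6 to 169 CPM (median 132) in untreated and from 154 to 355 CPM (median 175) in CCl4 samples, with Sctr at 0 in every untreated sample, and their part in the result was not tested. The CCl4 sample with the highest endothelial, stellate and macrophage sums, replicate 4, had the highest Ly6d level. It was second highest in its group for Anxa2, Lgals1, Tagln2 and Tpm1, and second lowest for Golm1, Cd63 and Cd9. CCl4 replicate 2, with the second highest stellate sum (84.5 CPM), was highest for Anxa2, Lgals1, Tagln2, Tpm1, Cd63 and Cd9. It was second highest for Ly6d and Golm1.

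The promoters of Gstp1, which fell, and Anxa2, which rose, each hold a TGANTCA sequence, the recognition motif of AP-1. They are printed as examples because both genes kept their calls and hold a match to this motif, 1 of 4 searched in all promoters. The match, in capitals, begins 74 bases before the RefSeq start site in Gstp1 (chr19:4037913-4038162, minus strand, GRCm38.p6) and 95 bases before it in Anxa2 (chr9:69453433-69453682, plus strand).
Gstp1: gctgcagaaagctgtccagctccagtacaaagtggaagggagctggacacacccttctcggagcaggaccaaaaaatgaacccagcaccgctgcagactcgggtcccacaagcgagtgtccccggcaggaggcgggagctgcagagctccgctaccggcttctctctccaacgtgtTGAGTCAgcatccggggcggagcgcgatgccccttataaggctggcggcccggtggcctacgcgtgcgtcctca
Anxa2: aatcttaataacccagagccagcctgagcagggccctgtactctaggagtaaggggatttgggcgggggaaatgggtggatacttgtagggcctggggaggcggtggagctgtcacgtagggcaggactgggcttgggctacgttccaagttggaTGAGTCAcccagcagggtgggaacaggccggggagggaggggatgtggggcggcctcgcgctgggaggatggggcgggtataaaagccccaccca
Of the 79 genes that rose 51 had a promoter in the RefSeq table, and of the 38 that fell 23. Windows ran from 250 bases before to 50 after the start, both strands were searched, and a window with overlapping matches counted once. TGANTCA was in 7.84% of the promoters of genes that rose, 4.35% of those that fell and 7.93% of all 27025 promoters, and in 5.09% of the 9964 promoters of genes tested. The antioxidant response motif TGACNNNGC was in 7.84%, 8.70% and 12.5%, and in 14.6% for the genes tested. The STAT5 motif TTCNNNGAA was in 9.80%, 0% (0 of 23) and 8.47%, and in 6.98% for the genes tested. The TEAD motif GGAATG was in 23.5%, 30.4% and 14.6%, and in 12% for the genes tested. As to the falls, 6 of the 7 promoters of fallen genes that hold it are Mup copies, and 1 of 17 (5.88%) held it without them. These matches describe letters in a window and show no binding.

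Fetal and imprinted genes included 2 that rose from few or no counts. Of 15 tested none fell, and the median was 1.39. Of 18 in the data these 15 passed the filter, which genes low in untreated samples could pass through their CCl4 levels. Part of that median may be fixed. H19, an imprinted noncoding RNA of fetal liver, had 0 counts in every untreated sample and 1.75, 1.95, 3.53, 3.12 and 1.78 CPM in CCl4 replicates 1 to 5. It was at least 54.8-fold higher against a floor of 3 counts over the untreated group, with an adjusted p of 0.00895. Dlk1, a membrane protein of hepatoblasts and stromal cells, had 1 count over the untreated and 99 over the CCl4 samples, a ratio of 60.8 with a 95% counting interval of 10.7 to 2425. Its call held in 3 of the 10 fits, against all 10 for H19.

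Proliferation genes gave 1 call in each of the lists for DNA replication and G1 regulators, where 0.853% of all genes were called. Of 28 genes of mitosis none was called, and their summed level ran from 12.4 to 581 CPM in untreated and from 104 to 293 CPM in CCl4 samples. Of 29 DNA replication genes 1 rose, the helicase subunit Mcm6, with 1.5 to 4.99 CPM in untreated and 6.28 to 10.3 CPM in CCl4 samples (1.61 ± 0.33, adjusted p = 0.0291). Among 19 G1 regulators the CDK4/6 inhibitor Cdkn2c rose by 1.32 ± 0.26 log2 (adjusted p = 0.0238). Among 24 p53 targets 1 rose, the receptor Eda2r, from 0.506 to 2.08 CPM to 2.83 to 9.29 CPM (2.33 ± 0.49, adjusted p = 0.0326). Their calls held in 4, 5 and 3 of the 10 fits. Cit, a kinase of cytokinesis in no list and chosen after its values were seen, rose by 4.64 ± 1.04 log2 (adjusted p = 0.0468) with overlapping groups and a call in 2 of the 10 fits.

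Among transcription factors that respond quickly to stress, Klf6 rose most firmly. Of 24 immediate-early and KLF factors 2 rose, where 0.576% of all genes did, and none fell, with a median of 0.59. Klf6, a zinc finger factor induced by liver injury, had 3.23, 2.67, 1.19, 3.61 and 1.52 CPM in the untreated and 11.8, 15.9, 12.3, 6.2 and 9.87 CPM in the CCl4 samples, in replicate order. The groups did not overlap and the call held in all 10 fits (2.21 ± 0.41, adjusted p = 0.0151). Fosb, an AP-1 subunit, had 1.31, 1.75, 0.188, 0.884 and 0 CPM in the untreated and 32.1, 28.2, 35.9, 10.1 and 26.2 CPM in the CCl4 samples, in replicate order. It rose by 5.06 ± 1.14 log2 (adjusted p = 0.0486) and was called in none of the 10 fits that left a wild type library out. Fos, of the same subfamily (3.17 ± 0.91, adjusted p = 0.124), and the stress factor Atf3 (3.50 ± 1.06, adjusted p = 0.136), had groups that did not overlap and were not called. Hes1, a Notch target, rose by 2.28 ± 0.48 log2 and was the only one of 13 Notch pathway genes called, in 3 of the 10 fits.

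Matrix genes and markers of other cells shared a few rises. Nid1, a basement membrane protein, had 0.504, 1.75, 1.07, 2.58 and 2.67 CPM in the untreated and 14.2, 13.9, 6.53, 13 and 14.2 CPM in the CCl4 samples, in replicate order, with CCl4 replicate 3 the lowest of its group and no overlap (2.82 ± 0.49, adjusted p = 0.00971). It was the only one of 25 basement membrane and matrix genes called, although 23 had a log2 fold change above 0 and the median was 1.16. Col27a1, a fibrillar collagen outside that list, fell from 19.4 to 84.6 CPM to 4.63 to 13 CPM (-2.45 ± 0.45, adjusted p = 0.015). Of 25 endothelial markers Lyve1 and Ramp2 rose, by 4.30 ± 0.85 and 4.20 ± 0.89 log2, and 23 had a log2 fold change above 0, with a median of 2.51. Calcrl, the receptor partner of Ramp2, rose from 0.145 to 0.565 CPM to 0.856 to 3.84 CPM (2.92 ± 0.52, adjusted p = 0.0109). Of 17 stellate and fibroblast markers tested Col3a1 rose, from 0.0628 to 0.867 CPM to 0.81 to 8.93 CPM (3.79 ± 0.79, adjusted p = 0.0302), and all 17 log2 fold changes were above 0. Of 25 such markers in the data only these 17 passed the filter. Genes low in untreated samples could pass it through their CCl4 levels in either genotype, so part of that sign count may be fixed. Of 24 macrophage markers none was called (median 1.88), where 0.853% of all genes were. Lyve1, Ramp2 and Col3a1 kept their calls in 6, 2 and 4 of the 10 fits. The summed endothelial markers had medians of 59.9 CPM in untreated and 152 CPM in CCl4 samples, and the stellate markers of 20.4 and 41.0 CPM; the part of such cells in the rise of Nid1 and Calcrl was not tested.

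The broad hepatocyte programmes are given for their medians, since at 0.853% of all genes called a list of this size holds few or no calls. None was called among 31 hepatocyte transcription factors (median -0.05), 34 secreted products (-0.21), 38 urea cycle and amino acid genes (-0.10), 28 acute-phase proteins (0.03), 32 unfolded protein and integrated stress response genes (0.19), 30 interferon-stimulated genes (-0.18) and 19 clock genes (-0.17). Hnf4a, the factor that maintains hepatocyte identity, had 496, 462, 645, 458 and 695 CPM in the untreated and 608, 538, 604, 601 and 605 CPM in the CCl4 samples, in replicate order (0.10 ± 0.18, adjusted p = 0.847). Yap1 had 46.6, 37.4, 73.6, 49.5 and 49.3 CPM in the untreated and 57.1, 51.8, 64.4, 42.5 and 60 CPM in the CCl4 samples, in replicate order, with overlap (0.10 ± 0.37, adjusted p = 0.936). Wwtr1, which encodes TAZ, had 10.9, 12.1, 9.86, 18.9 and 12.1 CPM in the untreated and 23.4, 19.9, 21.9, 15.2 and 17.8 CPM in the CCl4 samples, in replicate order; its groups overlapped through untreated replicate 4 (0.62 ± 0.26, adjusted p = 0.269). None of 19 YAP/TAZ-TEAD targets tested was called, with a median of 0.50. Of 26 such targets in the data 19 passed the filter, which genes low in untreated samples could pass through their CCl4 levels. In simulated data of this design 31% of 2-fold and 77% of 4-fold changes were recovered. The lowest genes were left out of that draw, so recovery at their levels was not measured.

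Of the 117 genes called, 49 rises and 23 falls belonged to none of the lists. Among rises that kept their calls in all 10 fits, Ccdc120 rose by 4.17 ± 0.59 log2, from 0.0737 to 0.506 CPM to 2.65 to 7.16 CPM. Akap2, an anchor of protein kinase A, rose by 3.33 ± 0.56, and Sgce, a sarcoglycan encoded by an imprinted gene, by 1.71 ± 0.27. Ifi27l2b, an interferon-inducible family member, had 5.44, 7.25, 2.7, 4.94 and 6.0 CPM in the untreated and 20.1, 23.3, 15.3, 24.5 and 20.6 CPM in the CCl4 samples, in replicate order, and rose by 1.98 ± 0.27 log2 (adjusted p = 0.00215). Cfap44, a cilium protein, had 0 counts untreated and 85 after CCl4, at least 17.4-fold higher. S100g, a calcium-binding protein, had 2 and 157 counts, a ratio of 48.2 (95% counting interval 13.1 to 401). The protease inhibitor Slpi had 1 and 68 counts, a ratio of 41.7 (7.24 to 1673), and Calml4 the same counts and interval. Tmem71, Lysmd2, 2010003K11Rik, Maged2, Pip4k2a and Spink1 also kept their rises, with log2 fold changes of 2.52, 2.32, 1.64, 1.45, 5.27 and 3.26. Pip4k2a (SE 0.91) had 4 counts over the untreated samples and 0.441 to 6.15 CPM in the CCl4 samples. Cfap44, Slpi, Calml4 and Pip4k2a did not pass the filter with wild type samples only, and all 10 fits include the knockout samples. Gm10680, an antisense model that overlaps Apoa4, rose by 2.01 ± 0.42 log2, a call that held in 4 of the 10 fits. Its reads may come from Apoa4, since strand use is not stated. Sh3bgrl (0.88 ± 0.16) and the splicing factor Slu7 (0.91 ± 0.17) kept their calls in all 10 fits.

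Falls outside the lists included Slc13a2, a citrate and dicarboxylate carrier, which had 4.64, 7.92, 6.47, 6.04 and 4.19 CPM in the untreated and 0.935, 1.45, 0.535, 1.61 and 0.619 CPM in the CCl4 samples, in replicate order. The groups were separate by more than 2 CPM (-2.51 ± 0.38, adjusted p = 0.00466). Tspan33, a tetraspanin, fell by 1.0 ± 0.15 log2, from 16 to 24.6 CPM to 8.85 to 12.3 CPM. Both held in all 10 fits. Npr2, the receptor of C-type natriuretic peptide (-1.81 ± 0.39), Cadm4, an adhesion molecule (-1.42 ± 0.28), Enho, which encodes adropin (-1.10 ± 0.23), and Cyp2d26 (-0.65 ± 0.13) fell as well, with calls that held in 3, 8, 2 and 6 of the 10 fits.

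The Yap/Taz knockout samples, which share no sample with the wild type comparison, gave more calls, under the same shared estimate of the spread. After CCl4 2610 genes (19%) were called there. Of the 117 wild type genes 99 were called in the same direction in the knockout, 84.6% of the wild type calls and 3.79% of the knockout calls. By direction, 67 of the 79 rises (84.8%, where 12.1% of all genes rose in knockout) and 32 of the 38 falls (84.2%, against 6.96%) were shared, and none was called in opposite directions. The filter ran over all 17 samples, so genes low in wild type could enter through their knockout CCl4 level. Part of the sharing may be fixed by that. With wild type samples only, 12178 genes passed the filter and 56 of the 79 rises were called. The rises that did not pass it include Slpi, Calml4, Dlk1, Ramp2, Flrt2, Cfap44, Pip4k2a and Cit. Knockout CCl4 replicate 3 had 34.3% mitochondrial counts; with it and untreated replicate 5 left out 187 genes were called in wild type, 99 of them among the 117.

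A test of the difference between the genotypes was passed by 150 genes (1.09%), 9 of them among the 117. Ly6d rose by 11.26 log2 in knockout against 5.18 in wild type, Cyp2a4 by 9.88 against 3.24, Anxa2 by 7.55 against 3.53 and Gsta1 by 6.52 against 2.04. The same held for Tagln2 (5.04 and 1.64), Lpl (5.46 and 2.79) and Slc1a4 (4.93 and 2.15), and the fall of Hsd3b5 was -7.79 against -3.46. For Slu7 the values were -0.38 in knockout (not called) and 0.91 in wild type. Adjusted p values of these differences ran from 0.0204 for Gsta1 to 0.0443 for Lpl. In untreated knockout samples Ly6d had 0 to 0.0856 CPM and Cyp2a4 0 to 0.257 CPM, so their fitted knockout values depend on the prior count. The count of 150 rested on single libraries, falling to 0 without untreated replicate 4, without CCl4 replicate 4 or 5 and without knockout untreated replicate 1 or 4, to between 2 and 29 without untreated replicate 5, CCl4 replicate 1, 2 or 3, knockout CCl4 replicate 3, or either of knockout untreated replicates 2 and 3, and reaching 867 without knockout CCl4 replicate 1. H2-Q1, a class I histocompatibility gene with near-identical copies, rose by 2.18 ± 0.47 log2 in wild type (called in 2 of the 10 fits) and had -0.34 in knockout, a difference that was not called (adjusted p = 0.0952).

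**Figure D5:**
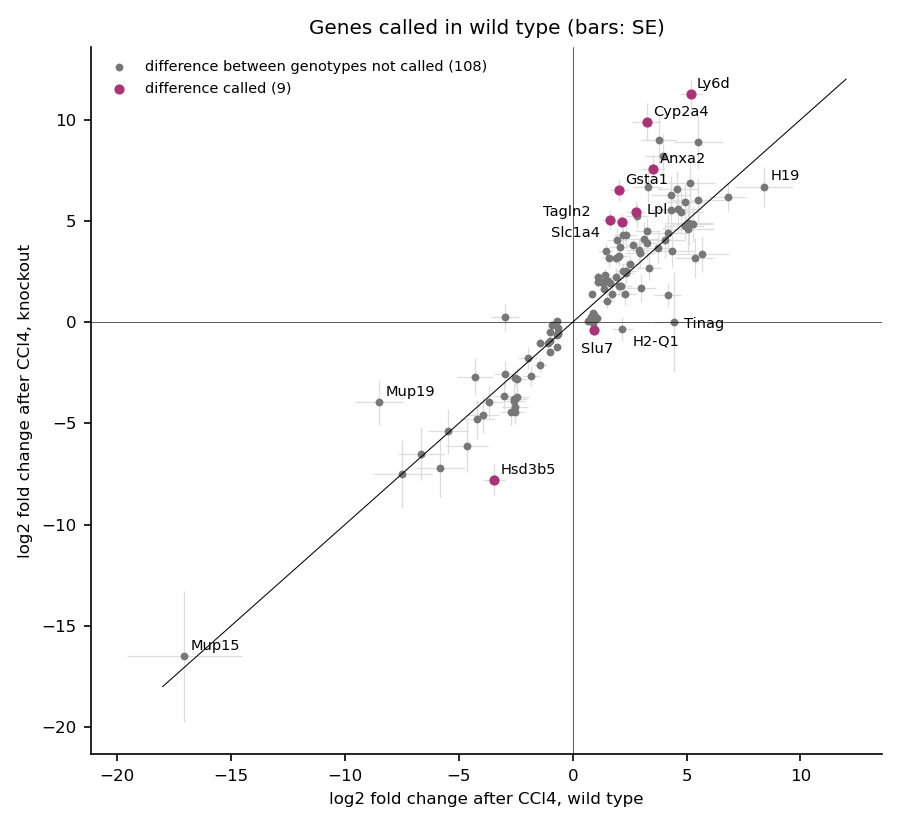
Log2 fold change after CCl4 in knockout (vertical axis) against wild type (horizontal axis) for the 117 genes called in wild type, with SE bars and the line of equal change. The 9 genes whose difference was called are coloured. Of them 7 rose more in knockout, Hsd3b5 fell more, and Slu7 lies below 0 in knockout. The knockout values of Ly6d and Cyp2a4 rest on few or no untreated counts and depend on the prior count.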

How the data were processed

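RNA of FACS-sorted hepatocytes came through a Qiagen MicroRNEasy purification, and libraries were built with NEBNext Ultra II RNA reagents, per the labels' protocols. The authors deposited 1 table of raw counts per gene for 17 samples. The submitters' processing notes name STAR 2.4.1d, mm10, FastQC, DESeq2, edgeR and limma; which program counted reads, its strand setting and its annotation is not given in the sources used here. Of 23461 Ensembl identifiers, 22914 had a symbol and position in GENCODE vM21 (GRCm38). No column was left out.

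Genes were kept by filterByExpr (minimum count 10, minimum total 15), scaled by TMM, and tested with edgeR 4.0.16 quasi-likelihood tests in R 4.3.3, with 1 mean per group over all 17 samples. P values were adjusted by Benjamini-Hochberg over 13721 genes, with calls made below an adjusted p of 0.05. Values after ± are standard errors of the log2 fold change. Adjusted p values come from this fit unless a sentence names another. Wild type totals ran from 11266420 to 24775863 counts. Replicates of a group differed by more than sampling noise (lowest chi-square per gene 25.7). Intervals (95%) and floors (3 counts) cover counting error only. The test was checked on simulated data, where 31% of 2-fold and 77% of 4-fold changes among 100 genes each were called, with 9 unchanged genes called, of 13525 genes. The changed genes were drawn from those with at least 1 CPM over all 17 samples, so recovery below that level was not measured. Promoters came from RefSeq (GRCm38.p6) and were aligned with biopython 1.88.

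The 50 gene lists hold 1271 entries, 1252 of them in the table and 1142 tested. Members, lists and the rule for named genes were chosen with earlier results of these data known. Named are Yap1 and Wwtr1, the 20 largest rises and falls among called genes with at least 10 CPM in the higher group (Mup genes as a family), genes called with each wild type library left out, and the members of each list with the smallest adjusted p or, with none called, the highest level. Alternatives were RLE, upper-quartile and total-count scaling, no filter, a CPM filter, DESeq2 1.42.0, limma 3.58.1 voom with and without quality weights, wild type samples only, a replicate block and leaving out each library. After seeing the data, fits without mitochondrially encoded genes and without libraries of over 30% mitochondrial counts were added.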

Additional observations from a re-analysis of the deposited data

Results flagged for a closer look

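In 20 of 282 groups of 5 samples of a named gene, 1 sample lay far from the other 4 by Dixon's criterion, which chance passes in about 1 in 20 groups. Each value is given against the nearest other sample of its group. For Slpi, Calml4 and Dlk1 the value is 1 count in 1 untreated sample with 0 in the other 4, which passes the criterion by construction and shows no sample standing apart. CCl4 replicate 1 was the highest of its group for Fos (324 against 157 CPM). CCl4 replicate 2 was the highest of its group for Cyp3a11 (4840.0 against 3080.0 CPM) and Cyp2c55 (27.9 against 14.6 CPM). CCl4 replicate 3 was the highest of its group for Rian (11.8 against 5.74 CPM) and Npr2 (8.78 against 5.65 CPM). CCl4 replicate 4 was the highest of its group for Stab1 (20.1 against 11.1 CPM). Untreated replicate 2 was the highest of its group for Atf3 (20.5 against 5.14 CPM) and Slpi (0.0834 against 0 CPM). Untreated replicate 3 was the highest of its group for Calml4 (0.0628 against 0 CPM). Untreated replicate 4 was the highest of its group for Wwtr1 (18.9 against 12.1 CPM), Abcc4 (0.442 against 0.0723 CPM), Cd63 (4.27 against 1.01 CPM) and Dlk1 (0.0737 against 0 CPM). Untreated replicate 5 was the highest of its group for Lgals1 (7.16 against 3.64 CPM) and Col3a1 (0.867 against 0.295 CPM). CCl4 replicate 2 was the lowest of its group for Hnf4a (538 against 601 CPM). CCl4 replicate 3 was the lowest of its group for Nid1 (6.53 against 13.0 CPM) and Calcrl (0.856 against 2.99 CPM). CCl4 replicate 4 was the lowest of its group for Slu7 (16.8 against 25 CPM). Untreated replicate 4 was the lowest of its group for Cyp2d9 (1260.0 against 1600.0 CPM).

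The response to CCl4 differed between genotypes, by edgeR's test of the difference, for 10 named genes. The log2 change in knockout minus that in wild type was above 0 for Cyp2a4 (6.63, adjusted p = 0.0316), Slc1a4 (2.77, adjusted p = 0.0316), Lpl (2.67, adjusted p = 0.0443), Gsta1 (4.48, adjusted p = 0.0204), Ly6d (6.08, adjusted p = 0.0316), Anxa2 (4.02, adjusted p = 0.0431) and Tagln2 (3.40, adjusted p = 0.0316). It was below 0 for Hsd3b5 (-4.33, adjusted p = 0.0316), Ugt2b1 (-1.44, adjusted p = 0.0441) and Slu7 (-1.30, adjusted p = 0.0431). Untreated knockout levels were 0 to 0.0856 CPM for Ly6d and 0 to 0.257 CPM for Cyp2a4, so the differences of these genes depend on the prior count. The number of genes passing this test fell to 0 in several of the fits that left out 1 library.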

How the results depend on the processing

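Against 117 calls (79 higher, 38 lower), library totals alone gave 651 (617 higher), with the median of all genes at 0.38 log2 and 94.8% of calls higher against 67.5%. DESeq2 gave 494 (319 higher, 175 lower), voom with quality weights 435 (199 and 236, 45.7% higher), and voom alone 44 higher calls, 56.4% of its calls. Without a filter 25 genes were lower. With wild type samples only 69 were lower. Leaving out 1 library gave 63 to 179 calls, 39 to 119 of them higher and 24 to 60 lower. The labels say that replicate numbers pair no samples, and a fit with a replicate block gave 49 calls (33 higher, 16 lower) and 3 for the difference between genotypes.

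Alternatives chosen after seeing the data gave 187 calls (138 higher) without both libraries of over 30% mitochondrial counts, and 188 (123 higher, 65 lower) with wild type samples only and without the high library. The 150 calls for the difference between genotypes became 28 with library totals, 33 without a filter, 88 with a CPM filter, 783 with DESeq2, 9 with voom, 2 with quality weights, 9 without the high-mitochondrial libraries, and 0 to 867 with 1 library left out. The cause of these shifts was not tested. RLE, upper-quartile scaling and the CPM filter gave 109, 111 and 104 calls. No named gene changed direction while called. Of 81 named genes called, 51 lost the call under at least 1 alternative.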
